A study of Homo sapiens with 9 samples.

Results

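Quercetin at 100 µM was compared with the vehicle DMSO in HCCLM3, a cell line established from human liver cancer (hepatocellular carcinoma) and described by its label as highly metastatic. The comparison rests on 6 of the series' 9 RNA-seq libraries: 3 from cells given DMSO (control) and 3 from cells given quercetin at 100 µM, taken by their treatment labels, and the 3 libraries at a lower dose did not enter it. All cells are labelled WT in genotype. Each group is a single cell line in culture. How long the cells were treated is not stated in the sources used here. The stated aim of the series is to study effects of quercetin on liver cancer. Its title points to IGFBP3, one of the binding proteins that carry insulin-like growth factors outside cells. Whether the replicates are separate cultures is not stated, and the p-values therefore reflect only how these libraries spread, which may be technical. In bulk RNA, fewer cells that express a gene and less of its RNA per cell cannot be told apart.

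Quercetin is a plant flavonol that binds metal ions, scavenges radicals and inhibits several kinases. Cells sense oxygen through prolyl hydroxylases, iron-dependent enzymes that mark the alpha subunits of hypoxia-inducible factor (HIF) for degradation. Stabilised alpha subunits pair with ARNT and bind DNA with the core ACGTG or GCGTG, at genes of glycolysis, pH control, blood vessel growth and collagen processing. ARNT is also the partner of the aryl hydrocarbon receptor (AhR), which binds flavonoids among other ligands and acts on cytochrome P450 genes through the core GCGTG. Hepatocyte-derived cells further make plasma proteins, lipoproteins and cholesterol.

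At 100 µM, 587 genes were higher and 437 lower than in the control, of 12667 tested (edgeR's quasi-likelihood test, Benjamini-Hochberg adjusted p under 0.05). That is 8.08% of the genes tested, 4.63% in the higher direction and 3.45% in the lower. At an unadjusted p under 0.05, 3589 genes passed. With all 6 libraries in the fit, the rises were larger than the falls. The median fold was 1.79 among genes called higher and 1.5 among those called lower. By at least 2-fold, 237 genes rose (1.87%) but 51 fell (0.403%). Higher genes made up 57.3% of the calls with scaling by TMM and 47.2% with scaling by library totals (465 higher, 521 lower). In limma on log2(FPKM + 1) they made up 45.7% (444 higher, 527 lower). In edgeR with TMM but without 100 µM replicate 3 they made up 52.6%. In 35.9% of the genes tested all 3 libraries at 100 µM lay on one side of all 3 controls, 17.9% above and 18% below, and every called gene was among them.

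One library in each group stood apart from the others. A chi-square on the counts, divided by the number of genes, was 27.9 and 27.7 for control replicate 1 with each of the other controls, and 3.58 for those with each other. At 100 µM it was 84.9 and 87.2 for replicate 3 with replicates 1 and 2, and 5.08 for these with each other. On the log2(CPM + 1) scale, with CPM the read count normalised to library size with TMM scaling, 100 µM replicate 3 was at least 2-fold above the mean of the others of its group in 363 genes and below it in 168. Control replicate 1 was above in 97 genes and below in 42. Across 10619 genes with a mean of at least 5 CPM, the deviations of both libraries from their groups went together, with Pearson's r and Spearman's rho of 0.61 each across genes, which are not independent. Of the 50 genes past 2-fold in both, all 50 deviated in the same direction. Of the genes called higher, 100 µM replicate 3 was the highest of the 6 libraries in 335 of 587, and of those called lower it was the lowest in 229 of 437. What set these libraries apart was not tested.

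**Figure D1:**
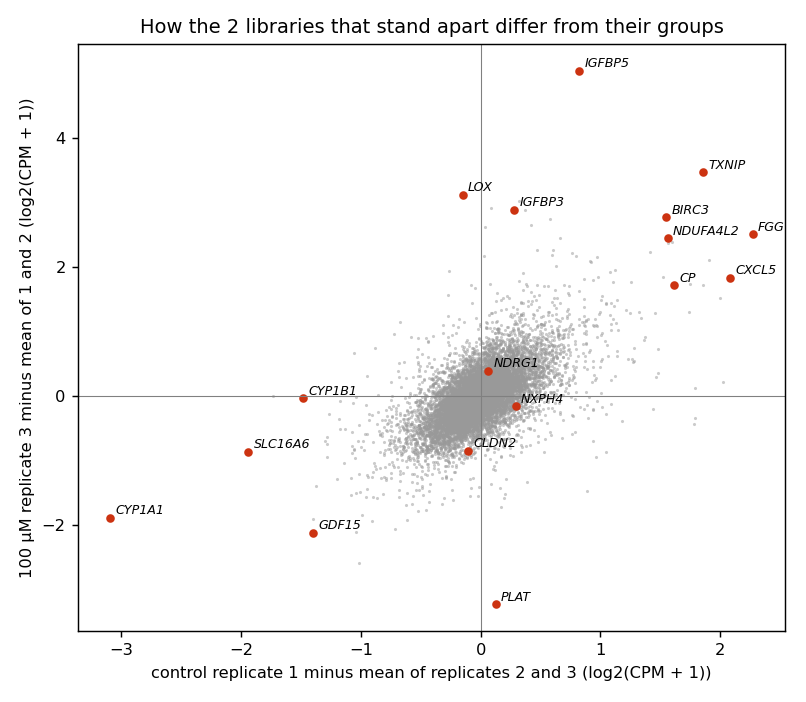
Deviation of control replicate 1 from control replicates 2 and 3 (x axis) against that of 100 µM replicate 3 from replicates 1 and 2 (y axis), both as differences of log2(CPM + 1), with 1 point for each of 10619 genes with a mean of at least 5 CPM. The cloud is tilted upward (Pearson's r of 0.61), and its spread is wider on the y axis, where 388 genes lie past 2-fold, than on the x axis, where 106 do.

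The number of calls depended strongly on which library was in the fit, so values of the genes that the results turn on are given per library, in the order of replicates 1, 2 and 3. Without 100 µM replicate 3, 1261 genes were higher and 1138 lower in edgeR (18.8% of those tested, 9.87% and 8.9% by direction). Without control replicate 1 the counts were 540 and 417 (7.47%, 4.21% and 3.25%). Leaving out control replicate 2 left 20 higher and 1 lower, and leaving out control replicate 3 left 22 and 2. Without 100 µM replicate 1 the counts were 156 and 62, and without replicate 2 they were 47 and 12. With both control replicate 1 and 100 µM replicate 3 left out, 3174 genes were higher and 3112 lower, 49.7% of those tested (25.1% and 24.6%). That fit held all 1024 genes called with 6 libraries. Both libraries were left out because they stood apart in these same counts, which narrows the spread, so this overlap is no check of the calls. Of the 1024, 1020 were also called without 100 µM replicate 3 and 712 without control replicate 1, and 0 changed sign in any of these 3 fits. Of the 113 called genes that the naming rule gave, 98, 10 and 12 were still called when control replicate 1, 2 or 3 was left out, and 60, 24 and 112 when 100 µM replicate 1, 2 or 3 was. A call lost without one of control replicates 2 and 3 or 100 µM replicates 1 and 2 is therefore the usual case and is not repeated at each gene. List counts given below for a fit without a library are to be read beside the shares of that fit over all genes.

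**Figure D2:**
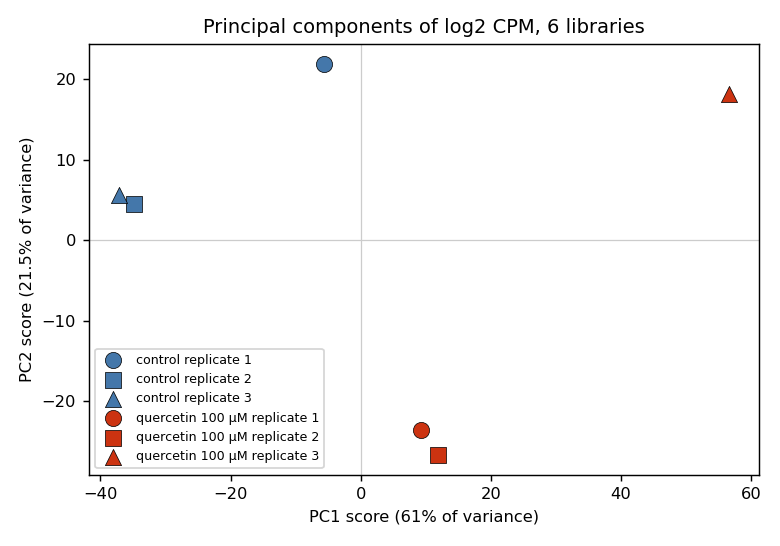
The 6 libraries on the first and second principal components of log2 CPM, which hold 61% and 21.5% of the variance; each point is 1 library, coloured by group. The controls lie at -37.1 to -5.71 and the 100 µM libraries at 9.22 to 56.6 on the first axis, with control replicate 1 nearest to the 100 µM group and 100 µM replicate 3 farthest from it.

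The totals ran from 20061136 to 21599805 estimated counts per library. Markers of the labelled cell type were uneven. The keratins KRT8 and KRT18 reached 3653 and 1406 CPM (without TMM scaling), and HNF4A, a transcription factor of hepatocytes, 44.1, while ALB reached 15.7, TTR 0.574 and AFP 5.93 CPM, and APOA1 and APOC3 were under the filter on low counts. The summed level of 17 hepatocyte markers was 4581 to 5204 CPM in the control and 3689 to 5050 at 100 µM. It rested mainly on KRT8 and KRT18, which were lowest in 100 µM replicate 3 (2563 and 694 CPM). Of the 15 hepatocyte markers tested, 5 were called higher and 1 lower, beside 4.63% and 3.45% of all genes tested. TTR, 1 of the 5, passed the filter on low counts only through the 100 µM libraries, so it had to be higher. The sums of 8 bile duct markers were 1354 to 1486 CPM in the control and 1436 to 1497 at 100 µM. Markers of other cell types were at different levels. The 6 lymphocyte markers summed to 0.449 to 0.85 CPM in the control and 0.705 to 1.25 at 100 µM, and COL1A1, CD14 and CSF1R stayed under 1 CPM in each library. Sums over 9 fibroblast markers (75.5 to 113; 86.2 to 150), 6 endothelial (36.7 to 42.2; 21.5 to 26.9) and 6 macrophage markers (144 to 197; 209 to 296) rested mainly on LUM (up to 140 CPM), PECAM1 (up to 32.9) and CD68 (up to 294), each above the highest level of ALB. PECAM1, an endothelial adhesion molecule, fell by 0.76 ± 0.10 on the log2 scale. CD68, a lysosomal protein of macrophages, lay above each control in all 3 libraries at 100 µM (0.61 ± 0.18, adjusted p = 0.0773, and 0.73 with adjusted p = 0.0153 without 100 µM replicate 3). The part of these markers in other results was not tested. No marker was at 0 in all 6 libraries.

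Among the largest rises stood genes of the HIF response. The promoters of 5 HIF target genes are therefore shown with that of the AhR target CYP1A1, to let the core letters be read beside the values. Apart from NDRG1, the 5 are the largest rises among the list members that the naming rule gave and that have a window. NDRG1 was left out of this choice, although its log2 fold change of 2.76 exceeded those of PFKFB4 (1.87) and P4HA1 (1.80). List members outside the naming rule, such as PPFIA4 and ANKRD37, rose more than some of the 5. That all 5 windows hold a core is a description of these genes. The sequences are RefSeq windows on GRCh38.p14 from 250 bases before to 50 after the gene's start, on the strand of the gene, 5′ to 3′. Capitals mark each match to ACGTG or GCGTG on either strand, so that a match on the other strand reads CACGT or CACGC. The windows are chr12:57240713-57241012 (minus strand) for NDUFA4L2, chr9:35673678-35673977 (plus) for CA9, chr19:8363905-8364204 (plus) for ANGPTL4, chr3:48556754-48557053 (minus) for PFKFB4, chr10:73096817-73097116 (minus) for P4HA1 and chr15:74725479-74725778 (minus) for CYP1A1.
NDUFA4L2: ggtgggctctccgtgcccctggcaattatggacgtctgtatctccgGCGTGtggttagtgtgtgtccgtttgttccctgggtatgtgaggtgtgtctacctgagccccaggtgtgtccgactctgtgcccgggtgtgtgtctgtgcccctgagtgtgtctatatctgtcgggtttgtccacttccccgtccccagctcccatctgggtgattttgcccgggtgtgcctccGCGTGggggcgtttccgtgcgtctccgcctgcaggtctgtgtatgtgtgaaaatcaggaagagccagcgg
CA9: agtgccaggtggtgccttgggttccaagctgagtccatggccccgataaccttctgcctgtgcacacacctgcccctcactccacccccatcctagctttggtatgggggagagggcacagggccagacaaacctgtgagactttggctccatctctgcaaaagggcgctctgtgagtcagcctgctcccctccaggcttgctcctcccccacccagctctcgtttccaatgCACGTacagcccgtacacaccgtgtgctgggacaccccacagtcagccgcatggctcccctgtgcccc
ANGPTL4: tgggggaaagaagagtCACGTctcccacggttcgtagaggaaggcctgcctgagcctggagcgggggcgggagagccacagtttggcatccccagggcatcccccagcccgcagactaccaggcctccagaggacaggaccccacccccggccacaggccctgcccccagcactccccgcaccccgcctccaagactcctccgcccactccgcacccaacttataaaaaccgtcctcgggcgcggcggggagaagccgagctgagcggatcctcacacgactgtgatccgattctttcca
PFKFB4: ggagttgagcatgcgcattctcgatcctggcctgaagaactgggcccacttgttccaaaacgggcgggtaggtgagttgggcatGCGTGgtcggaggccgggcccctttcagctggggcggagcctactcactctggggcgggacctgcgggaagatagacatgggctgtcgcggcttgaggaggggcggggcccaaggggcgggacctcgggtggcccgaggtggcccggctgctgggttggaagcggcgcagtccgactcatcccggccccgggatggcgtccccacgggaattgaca
P4HA1: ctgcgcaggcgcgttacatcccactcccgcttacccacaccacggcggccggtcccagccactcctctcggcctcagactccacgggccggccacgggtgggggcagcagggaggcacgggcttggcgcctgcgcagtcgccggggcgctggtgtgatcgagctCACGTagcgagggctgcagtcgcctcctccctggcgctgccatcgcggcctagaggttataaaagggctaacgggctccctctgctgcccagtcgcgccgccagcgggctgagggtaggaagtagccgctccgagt
CYP1A1: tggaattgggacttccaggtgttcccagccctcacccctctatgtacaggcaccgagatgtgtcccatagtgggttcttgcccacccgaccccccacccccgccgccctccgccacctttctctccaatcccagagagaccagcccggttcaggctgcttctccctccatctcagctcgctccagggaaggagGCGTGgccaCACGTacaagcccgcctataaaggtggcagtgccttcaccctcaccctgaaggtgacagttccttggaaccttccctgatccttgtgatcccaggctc

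A window with either core was common: 63.1% of the 10400 tested genes with a RefSeq window held one. It was 60.8% of 469 genes called higher and 70.5% of 353 called lower, and 51.9% of 181 genes that rose at least 2-fold. In the HIF target list 22 of 24 windows (91.7%) held a core, 15 of them ACGTG (62.5%, against 26.6% of the tested genes). The AhR list had a core in 10 of 11 windows, and GCGTG in 9. Glycolysis had one in 12 of 19 (63.2%). CACGTG reads as ACGTG on both strands, and GCGTG is a core of both factors. A match is a run of letters, not a bound site.

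HIF target genes outside glycolysis rose in 21 of the 29 members tested and fell in 0, with a median log2 fold change of 1.31 beside 0.01 over all genes tested. The 29 are the members of a list of 32 that passed the filter on low counts. Of the 29, 26 lay above every control in all 3 libraries at 100 µM, beside 17.9% of all genes tested. Without 100 µM replicate 3, 24 members were called higher and the median was 1.03. 

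NDUFA4L2, a HIF-dependent subunit linked to complex IV that lowers mitochondrial respiration, held 4.08, 0.514 and 0.958 CPM in control replicates 1, 2 and 3 and 42.8, 49.5 and 256 at 100 µM. CA9, a surface carbonic anhydrase that helps cells get rid of acid, held 4.17, 0.747 and 0.857 CPM in the controls and 53.1, 63.7 and 212 at 100 µM. In both genes control replicate 1 was the highest control and 100 µM replicate 3 the highest of all, yet the groups did not overlap. The log2 fold changes were 5.95 ± 1.02 (SE, adjusted p = 0.0221) and 5.81 ± 0.84 (adjusted p = 0.015) in edgeR. Leaving out 100 µM replicate 3 lowered them to 4.61 and 4.89, and leaving out control replicate 1 raised them to 7.30 and 7.08, all still past the threshold. NDUFA4L2 lies on GRCh38 chromosome 12, 57234903 to 57240762, and CA9 on chromosome 9, 35673809 to 35681159. CA12, a related carbonic anhydrase, rose less, by 0.53 ± 0.10 on the log2 scale.

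Among the list's secreted members, ANGPTL4, VEGFA and ADM rose. ANGPTL4, a secreted inhibitor of lipoprotein lipase (chromosome 19, 8363033 to 8374373), held 7.7, 9.99 and 9.07 CPM in the controls and 43.3, 51.7 and 142 at 100 µM, a log2 fold change of 3.15 ± 0.47 (adjusted p = 0.0159). It was 2.41 without 100 µM replicate 3, which held the highest level. VEGFA, the main growth factor of blood vessels, held 74.5, 61.2 and 56.5 CPM in the controls and 108, 121 and 203 at 100 µM (1.17 ± 0.25, adjusted p = 0.0356), a call lost without control replicate 1 (adjusted p = 0.0527). ADM, the vasodilating peptide adrenomedullin, rose by 1.31 ± 0.13. Outside the list, APLN, the ligand of the apelin receptor and among the 12 largest rises, held 0.136, 0.514 and 0.605 CPM in the controls and 4.95, 5.42 and 10.6 at 100 µM (4.06 ± 0.52, adjusted p = 0.0117). The groups did not overlap in APLN, which passed the filter on low counts only through the 100 µM libraries.

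NDRG1, a gene that responds to hypoxia and iron depletion, gave one of the smallest p-values of the comparison. NDRG1 (chromosome 8, 133237171 to 133297304) held 246, 238 and 234 CPM in the controls and 1454, 1483 and 1928 at 100 µM, a 6.78-fold rise (log2 2.76 ± 0.14, adjusted p = 0.000815). The controls lay close together, and 100 µM replicate 3 lay above the other libraries. PFKFB4 (chromosome 3, 48517684 to 48562383), which makes the activator of phosphofructokinase, held 10.1, 9.06 and 9.27 CPM in the controls and 32.1, 31.8 and 40 at 100 µM (1.87 ± 0.13, adjusted p = 0.00187). Its relative PFKFB3 rose by 1.06 ± 0.13. The mitophagy receptors BNIP3 and BNIP3L rose by 1.29 ± 0.14 and 1.49 ± 0.19, from 127, 141 and 132 to 271, 316 and 387 CPM in BNIP3. KDM3A and KDM4B, histone lysine demethylases, rose by 0.99 ± 0.09 and 0.88 ± 0.12, and INSIG2, which holds the sterol sensor in the endoplasmic reticulum, by 1.33 ± 0.23.

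Of the rest of the list, ERO1A, an oxidase of disulphide bond formation, rose by 1.47 ± 0.25, BHLHE40, a repressor of transcription, by 0.54 ± 0.09, and HILPDA, a lipid droplet protein, by 1.05 ± 0.21. HILPDA (adjusted p = 0.0664) and ANKRD37 (0.0645) lost the call without control replicate 1. ANKRD37 rose by 2.92 ± 0.56 and by 2.11 without 100 µM replicate 3, and PPFIA4 rose by 3.77 ± 0.63, or 4.47 without control replicate 1. Both held under 1 CPM in each control, where folds are imprecise, and PPFIA4 passed the filter on low counts only through the 100 µM libraries. The 8 members not called ranged from -0.94 (STC2) to 3.03 (LOX). LOX, the lysyl oxidase, held 2.63, 3.41 and 2.67 CPM in the controls and 5.85, 6.03 and 59.5 at 100 µM, so that replicate 3 lay far above the other libraries (adjusted p = 0.0947). Without it the log2 fold change of LOX was 1.03, past the threshold (adjusted p = 0.0112).

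**Figure D3:**
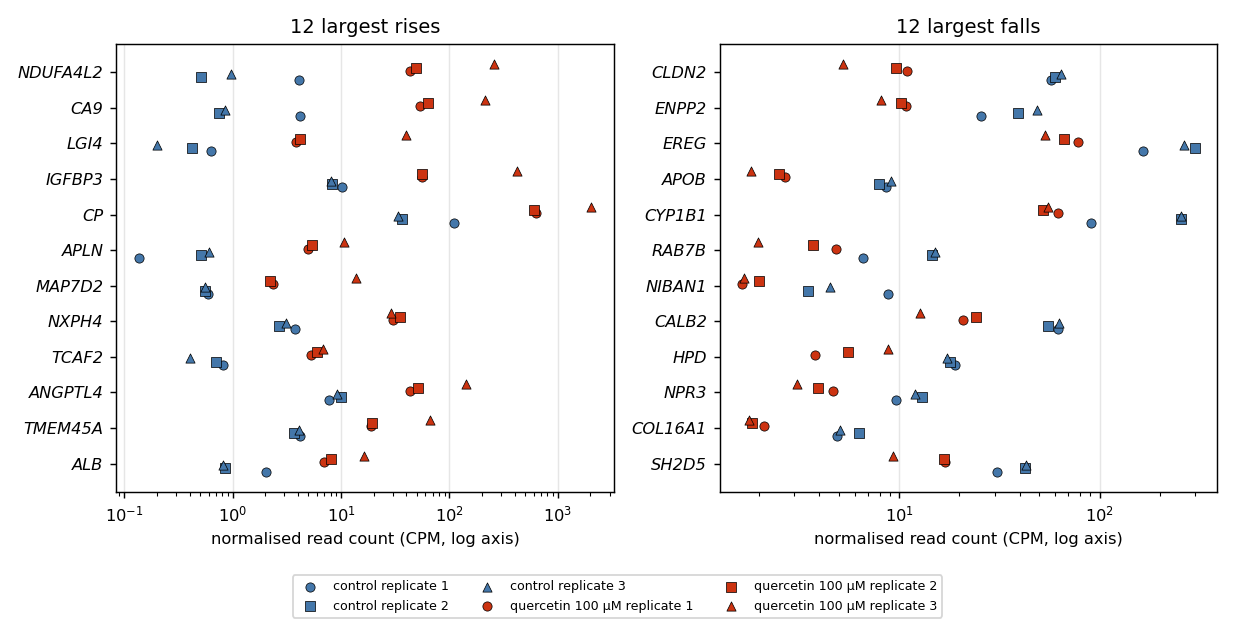
Normalised read count (CPM, log axis) in each of the 6 libraries for the 12 largest rises (left) and the 12 largest falls (right) among called genes whose higher group averaged at least 5 CPM; colour gives the group and symbol the replicate. The choice of genes also required groups that do not overlap. In 11 of the 12 rises, all but NXPH4, 100 µM replicate 3 is the highest library, and in 9 of the 12 falls it is the lowest. The genes were ranked by these same values, so these counts are a description.

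The HIF subunits and oxygen sensors themselves showed 1 call among 11 tested members, with a median log2 fold change of 0.10. Without 100 µM replicate 3, 4 were higher and 1 lower, in a fit that called 18.8% of all genes tested. CITED2, which competes with HIF alpha subunits for the coactivators CBP and p300, held 40.8, 39.3 and 36.4 CPM in the controls and 108, 118 and 128 at 100 µM (chromosome 6, 139370027 to 139374648; 1.61 ± 0.10, adjusted p = 0.00137). HIF1A held 516, 698 and 714 CPM in the controls and 473, 418 and 291 at 100 µM, with each 100 µM library below each control, but its log2 fold change of -0.71 ± 0.21 did not pass (adjusted p = 0.0783). EPAS1, which encodes HIF-2 alpha, and ARNT had values of 0.22 ± 0.26 and 0.10 ± 0.10 and did not pass. EGLN1, the main prolyl hydroxylase and itself a HIF target, had 0.45 ± 0.13 (adjusted p = 0.0798).

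Glycolysis rose in part. Of 19 genes of glucose uptake and glycolysis tested, 7 were higher and 0 lower, with a median of 0.44. ENO2, the neuronal enolase (chromosome 12, 6914450 to 6926059), held 48.6, 60.3 and 61.8 CPM in the controls and 193, 202 and 233 at 100 µM (1.88 ± 0.13, adjusted p = 0.00187). ALDOC, an aldolase isoform, rose by 2.74 ± 0.36, and SLC16A3, the lactate exporter MCT4, from 123, 82.1 and 82.1 to 251, 264 and 294 CPM, by 1.49 ± 0.18. The enzymes PGK1 and LDHA were at a high level in each library: PGK1 rose 2.3-fold, from 1385, 1479 and 1608 to 3172, 3215 and 3900 CPM, and LDHA by 0.95 ± 0.11 on the log2 scale. PFKL and TPI1 rose by 0.83 ± 0.10 and 0.78 ± 0.10. The glucose transporter SLC2A1 did not pass: it held 92.1, 225 and 224 CPM in the controls and 314, 324 and 188 at 100 µM, and control replicate 1 and 100 µM replicate 3 were the lowest of their groups. Without both, its log2 fold change was 0.51, against 0.61 ± 0.36 with all 6. The adjusted p of 6.71e-09 in edgeR without both came with a spread narrowed by that choice. AK4, an adenylate kinase of mitochondria, held 3.04, 2.1 and 2.37 CPM in the controls and 18.2, 16.9 and 18.7 at 100 µM (chromosome 1, 65146169 to 65232145; 2.84 ± 0.17, adjusted p = 0.00131).

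Collagen-modifying enzymes gave 3 rises and 0 falls among 10 tested, with a median of 0.90, and 5 rises without 100 µM replicate 3. PLOD2, which hydroxylates collagen lysines (chromosome 3, 146064119 to 146161184), held 202, 236 and 227 CPM in the controls and 562, 505 and 496 at 100 µM, a rise of 1.23 ± 0.11 (adjusted p = 0.00415). LOXL2, a lysyl oxidase that cross-links collagen, rose by 1.46 ± 0.12, with 85.1 CPM in its lowest library at 100 µM against 36.7 in its highest control. P4HA1, the catalytic subunit of collagen prolyl hydroxylase, held 86.2, 81.9 and 84 CPM in the controls and 219, 213 and 448 at 100 µM (1.80 ± 0.29). In P4HA1, 100 µM replicate 3 lay above replicates 1 and 2 by more than those differed from each other.

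IGFBP3 (chromosome 7, 45912245 to 45921272) held 10.2, 8.31 and 8.06 CPM in the controls and 55.8, 55.2 and 419 at 100 µM. Replicates 1 and 2 were nearly equal, and replicate 3 lay far above both. With all 6 libraries the log2 fold change was 4.32 ± 0.88 (adjusted p = 0.033); without 100 µM replicate 3 it was 2.65 (adjusted p = 5.11e-05), and without control replicate 1 the call was lost (4.43, adjusted p = 0.0702). In the IGF axis, a growth factor system with binding proteins and receptors, 3 of 17 tested members rose and 0 fell, with a median of 0.33; without 100 µM replicate 3 the count was 6 higher, and without control replicate 1 it was 2. The others that rose were IGF2 (a fetal growth factor; 0.77, 0.14 and 0.252 CPM in the controls and 2.92, 3.43 and 2.66 at 100 µM, 2.92 ± 0.52) and IGFBP2 (27.2, 18.2 and 15.5 CPM in the controls and 46.2, 53.7 and 56 at 100 µM, 1.35 ± 0.21). IGF2 passed the filter on low counts only through the 100 µM libraries, so as 1 of the 3 rises it had to be higher, and its value was 3.91 without control replicate 1. IGFBP5 was at 0 in control replicates 2 and 3 and held 0.77 CPM in replicate 1, against 2.92, 2.32 and 119 CPM at 100 µM (adjusted p = 0.0771). The receptors IGF1R and IGF2R had log2 fold changes of 0.05 ± 0.13 and 0.07 ± 0.26 and did not pass.

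Iron handling gave 2 rises among 16 tested members, with a median of -0.04. CP, ceruloplasmin, the copper oxidase that loads iron onto transferrin (chromosome 3, 149162410 to 149222008), held 109, 36.6 and 33.4 CPM in the controls and 631, 607 and 2035 at 100 µM, a log2 fold change of 4.19 ± 0.70 (adjusted p = 0.0206). It was 3.37 without 100 µM replicate 3 and 4.96 without control replicate 1. TF, transferrin itself (chromosome 3, 133661895 to 133796641), held 39.9, 17.2 and 16.8 CPM in the controls and 171, 196 and 139 at 100 µM (2.77 ± 0.36, adjusted p = 0.0117), with replicate 3 the lowest at 100 µM. The transferrin receptor TFRC and the ferritin chain FTH1 had values of -0.03 ± 0.11 and 0.07 ± 0.10, not past the threshold.

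**Figure D4:**
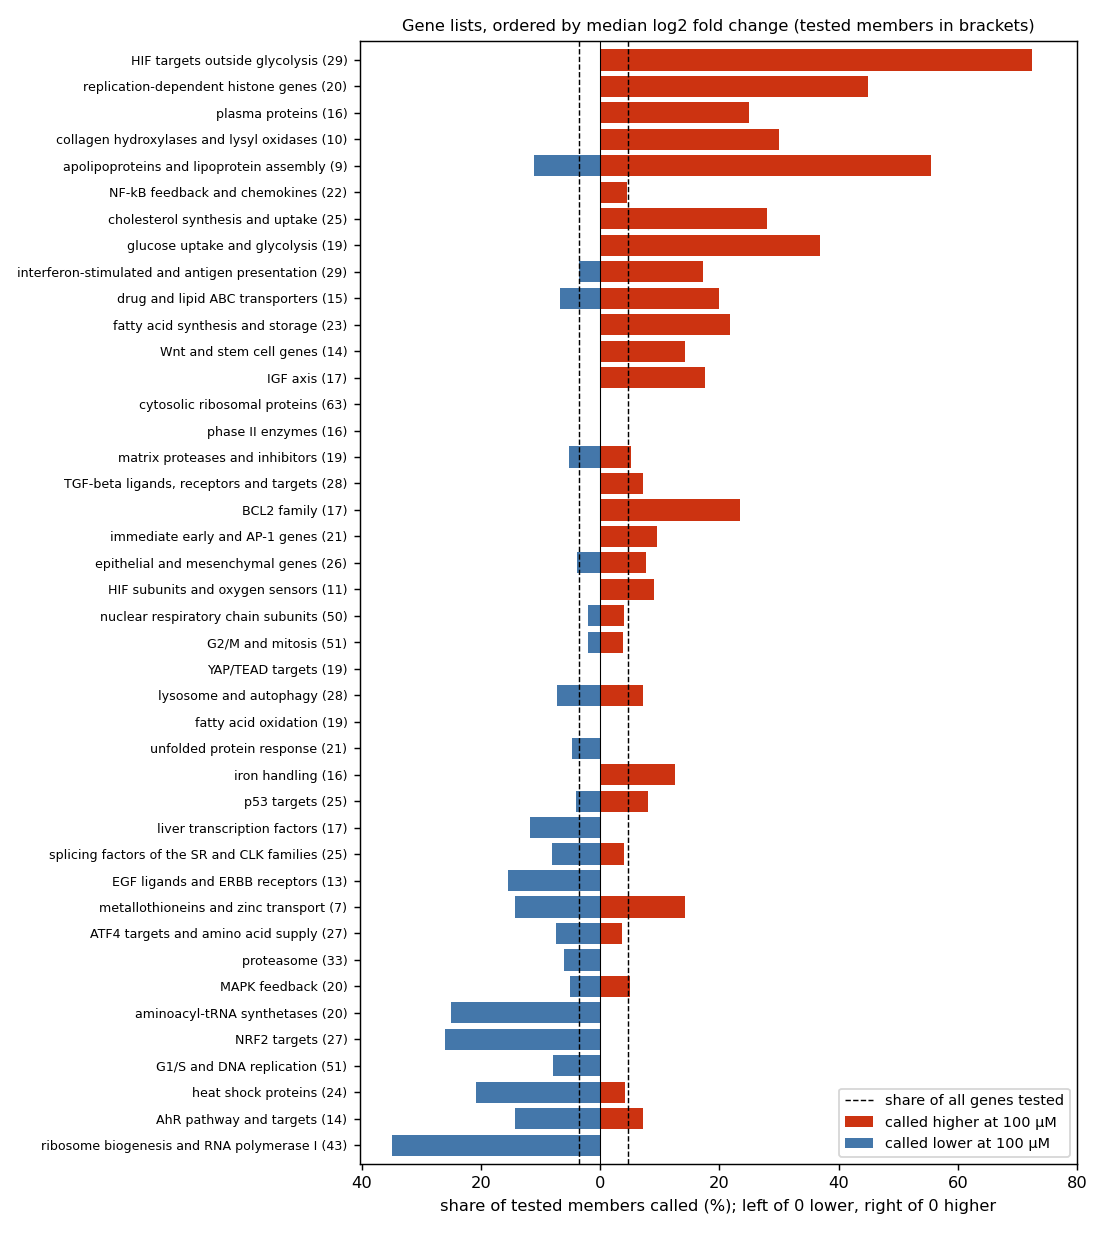
Share of tested members called higher (red, right of 0) and lower (blue, left of 0) at 100 µM in each gene list, in percent, with lists ordered by their median log2 fold change, tested members in brackets and the shares over all genes tested (4.63% higher, 3.45% lower) as dashed lines. The HIF targets stand at the top, with 21 of 29 called higher and 0 lower, and ribosome biogenesis at the bottom, with 15 of 43 called lower and 0 higher.

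The AhR list had 1 rise and 2 falls among 14 tested members, with a median of -0.35, and 0 rises and 5 falls without control replicate 1. CYP1B1, a cytochrome P450 that oxidises aromatic hydrocarbons and oestrogens (chromosome 2, 38066973 to 38095392), held 90.3, 255 and 254 CPM in the controls and 62, 52.3 and 55.5 at 100 µM, a fall of 1.82 ± 0.37 on the log2 scale (adjusted p = 0.0326; without 100 µM replicate 3 the adjusted p was 0.0508). Control replicate 1 lay nearer to the 100 µM libraries than to the other controls. CYP1A1, the textbook AhR target, held 4.35, 41.9 and 47.3 CPM in the controls and 4.2, 3.48 and 0.296 at 100 µM, with control replicate 1 close to 100 µM replicates 1 and 2 and far below the other controls. Its log2 fold change of -3.54 ± 1.00 did not pass (adjusted p = 0.072); without control replicate 1 it was -4.06 (adjusted p = 0.033). EREG, the EGF receptor ligand epiregulin, held 164, 299 and 264 CPM in the controls and 78, 66.5 and 53.5 at 100 µM (-1.88 ± 0.24, adjusted p = 0.0117). NQO1, a quinone reductase under both AhR and NRF2, had -0.25 ± 0.10, and AHR itself 0.36 ± 0.14, neither past the threshold. PTGS2, cyclooxygenase 2, rose by 2.86 ± 0.66, with 45.3, 45.6 and 223 CPM at 100 µM; without replicate 3 it was 1.65, and control replicate 1 was needed for the call (adjusted p = 0.0799 in its absence).

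Targets of NRF2, the factor of the antioxidant response, fell in 7 of 27 tested members and rose in 0, with a median of -0.33. Of the 27, 18 lay below every control in all 3 libraries at 100 µM, beside 18% of all genes tested. The number that fell was 14 without 100 µM replicate 3, in a fit where 8.9% of all genes tested fell, against 3.45% with all 6 libraries. SRXN1, which repairs peroxiredoxins, held 463, 534 and 562 CPM in the controls and 266, 256 and 205 at 100 µM (-1.10 ± 0.13, adjusted p = 0.01). GCLC and GCLM, the subunits of the first enzyme of glutathione synthesis, fell by 0.69 ± 0.09 and 0.41 ± 0.10, and SLC7A11, the cystine importer, by 0.74 ± 0.13. GCLM lost the call without control replicate 1 (adjusted p = 0.0768). AKR1B10 and AKR1C1, aldo-keto reductases, fell by 0.84 ± 0.11 and 0.69 ± 0.10; AKR1C1 shares near-identical copies, so its level is uncertain. HMOX1, heme oxygenase 1, had 0.04 ± 0.14 and did not pass. ABCC2, an exporter of conjugates, fell by 0.51 ± 0.09. Phase II enzymes, which conjugate drugs, had 0 calls among 16 tested in edgeR and 0 in DESeq2, and 3 had an unadjusted edgeR p under 0.05. Of all 12667 genes tested, 3589 passed that unadjusted p, and DESeq2 called 1181 higher and 1008 lower. In edgeR 3 lipid transporters rose: ABCA7 by 1.11 ± 0.11, ABCA2 2.3-fold and ABCA1, the cholesterol exporter, by 1.67 ± 0.28.

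Metallothioneins and zinc transport had 1 rise and 1 fall among 7 tested. MT1X, a metallothionein that binds zinc and copper, held 0.543, 0.187 and 0.202 CPM in the controls and 3.73, 3.89 and 7.34 at 100 µM (3.96 ± 0.49, adjusted p = 0.0111) and has near-identical relatives. It passed the filter on low counts through the 100 µM libraries, and without control replicate 1 its value was 4.64. SLC30A1, a zinc exporter, fell by 0.60 ± 0.14, a call lost without control replicate 1 (adjusted p = 0.0525). Heat shock proteins had 5 falls and 1 rise among 24 tested, with a median of -0.34, and 9 falls without 100 µM replicate 3. HSPA4L fell by 0.94 ± 0.10, CHORDC1 by 0.60 ± 0.09, FKBP4, a partner of HSP90, by 0.75 ± 0.13, and the mitochondrial chaperones HSPD1 and HSPA9 by 0.55 ± 0.11 and 0.50 ± 0.09. The rise was that of CRYAB, a small heat shock protein, with 2.17, 2.19 and 2.67 CPM in the controls and 8.54, 8.39 and 16.3 at 100 µM (2.24 ± 0.31). Genes of the unfolded protein response had 1 fall among 21, SDF2L1 by 0.79 ± 0.18. ATF4 targets had 1 rise, VLDLR by 0.69 ± 0.10, and 2 falls, SLC7A11 and DDIT3 (by 0.61 ± 0.12), among 27.

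Plasma protein genes rose in 4 of 16 tested members and fell in 0, with a median of 0.91 (7 higher and 1 lower without 100 µM replicate 3), and 13 of the 29 in the table did not pass the filter on low counts. ALB, albumin (chromosome 4, 73397114 to 73421482), held 2.04, 0.841 and 0.806 CPM in the controls and 7.03, 8.11 and 16.2 at 100 µM (3.07 ± 0.48, adjusted p = 0.0175). FGA and FGB, fibrinogen chains, rose by 0.99 ± 0.20 and 3.01 ± 0.62, FGB from 10.3, 4.53 and 4.94 to 25.4, 31.1 and 103 CPM and by 2.09 without 100 µM replicate 3. FGG, the third chain, held 14, 2.01 and 2.22 CPM in the controls and 11.1, 12.3 and 71.5 at 100 µM, so control replicate 1 was above both 100 µM replicates 1 and 2, and did not pass (adjusted p = 0.17). TTR, transthyretin, held 0.0906, 0.187 and 0.0504 CPM in the controls and 0.566, 0.51 and 0.591 at 100 µM (2.27 ± 0.49). It passed the filter on low counts only through the 100 µM libraries, so as 1 of the 4 rises it had to be higher. It lost the call without control replicate 1 (adjusted p = 0.0755) and was 7.25-fold higher without control replicate 2 (adjusted p = 0.115).

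Lipoprotein genes moved in both directions. MTTP, which loads lipid onto apolipoprotein B, held 24.7, 12.8 and 13.6 CPM in the controls and 67.5, 65.5 and 176 at 100 µM (2.60 ± 0.46, adjusted p = 0.0237; 1.96 without 100 µM replicate 3). APOB itself (chromosome 2, 20999313 to 21044073) fell, from 8.56, 7.94 and 9.12 to 2.69, 2.5 and 1.82 CPM (-1.86 ± 0.20, adjusted p = 0.00792). In total 5 of 9 tested members rose and 1 fell, with LIPC (1.13 ± 0.21), APOA4 (1.57 ± 0.33) and APOH (0.53 ± 0.12) among the other rises. APOA4 lost the call without control replicate 1 (adjusted p = 0.0691). Among 17 liver transcription factors 2 fell: CEBPA by 0.96 ± 0.09, with 39.9 CPM in its highest library at 100 µM and 73 in its lowest control, and GATA4 by 0.80 ± 0.18. HNF4A had -0.25 ± 0.21 and did not pass.

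Cholesterol synthesis and uptake rose in 7 of 25 tested members and fell in 0, with a median of 0.49, and in 11 without 100 µM replicate 3. LSS, lanosterol synthase, held 48.6, 53 and 49.9 CPM in the controls and 97.4, 105 and 95.4 at 100 µM (0.97 ± 0.09, adjusted p = 0.0046). DHCR7, the last step of cholesterol synthesis, rose by 0.74 ± 0.10. MVD, FDFT1, IDI1 and SREBF2 rose by 0.95 ± 0.16, 0.79 ± 0.13, 0.73 ± 0.15 and 0.54 ± 0.09, and IDI1 lost the call without control replicate 1 (adjusted p = 0.0576). Fatty acid synthesis had 5 rises and 0 falls among 23, with a median of 0.33, and 11 rises and 2 falls without 100 µM replicate 3. FADS2, a desaturase of polyunsaturated fatty acids (chromosome 11, 61816203 to 61867957), held 435, 346 and 379.5 CPM in the controls and 963, 1011 and 969 at 100 µM (1.34 ± 0.11, adjusted p = 0.00415). SCD, the desaturase that makes oleate, rose by 1.62 ± 0.18, FASN, fatty acid synthase, by 1.04 ± 0.16, and their regulator SREBF1 by 1.19 ± 0.24. ACSL4 rose by 0.48 ± 0.11 (adjusted p = 0.0674 without control replicate 1). Fatty acid oxidation had 0 calls among 19 in edgeR. DESeq2 called 2 of them, and 3 had an unadjusted edgeR p under 0.05. Over all 12667 genes tested, DESeq2 called 1181 higher and 1008 lower, and 3589 passed that unadjusted p. Respiratory chain subunits had 2 rises (NDUFA1 and NDUFA2, by 0.45 ± 0.11 and 0.60 ± 0.14) and 1 fall (NDUFB9, by 0.48 ± 0.09) among 50.

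Ribosome biogenesis genes, which make and assemble ribosomal RNA, fell in 15 of 43 tested members and rose in 0, with a median of -0.42. Of the 43, 38 lay below every control in all 3 libraries at 100 µM, beside 18% of all genes tested. The number that fell was 25 without 100 µM replicate 3, in a fit where 8.9% of all genes tested fell, against 3.45% with all 6 libraries. POLR1B, a subunit of RNA polymerase I, held 59.2, 66 and 69.2 CPM in the controls and 37.5, 36.4 and 33.1 at 100 µM (-0.86 ± 0.10, adjusted p = 0.00898). NOP16 and PNO1, assembly factors, fell by 0.68 ± 0.09 and 0.71 ± 0.10, UTP20 by 0.82 ± 0.12 and RRS1 by 0.91 ± 0.20. Of the 15, NOP56 and RRP12 lost the call without control replicate 1 (adjusted p = 0.0594 and 0.0503). Aminoacyl-tRNA synthetases, which charge transfer RNA, fell in 5 of 20 and rose in 0, with a median of -0.33, and 9 fell without 100 µM replicate 3. FARSB held 95.4, 103 and 103 CPM in the controls and 63, 60.4 and 57.7 at 100 µM (-0.73 ± 0.09); GARS1, YARS1, IARS1 and VARS1 fell by 0.71 ± 0.11, 0.66 ± 0.11, 0.72 ± 0.13 and 0.37 ± 0.09. VARS1 lost the call without control replicate 1 (adjusted p = 0.0652). Cytosolic ribosomal protein genes had 0 calls among 63 in edgeR. DESeq2 called 5 of the 63, and 12 had an unadjusted edgeR p under 0.05. Over all 12667 genes tested, DESeq2 called 1181 higher and 1008 lower, and 3589 passed that unadjusted p. The median of the 63 was 0.29, and 0.03 without 100 µM replicate 3. That library lay above replicates 1 and 2 by a median of 0.59 in log2(CPM + 1) in these genes.

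Of 51 tested genes of the G1/S transition and replication 4 fell and 0 rose, with a median of -0.33. That is 7.84% called, beside 8.08% of all genes tested. Without 100 µM replicate 3, 11 fell and 2 rose, with a median of -0.17, beside 8.9% and 9.87% of all genes tested. Without control replicate 1 as well, 30 fell and 3 rose, beside 24.6% and 25.1% of all genes tested. The spread in that last fit was narrowed by the choice of libraries. CDK6, a cyclin D kinase, held 52, 58.3 and 60.6 CPM in the controls and 31, 26.8 and 33.9 at 100 µM (-0.90 ± 0.12, adjusted p = 0.012). MCM6, of the replicative helicase, and POLA1, of the primase complex, fell by 0.56 ± 0.09 and 0.49 ± 0.10, and RFC4 by 0.42 ± 0.10, a call lost without control replicate 1 (adjusted p = 0.0779). Of 51 mitotic genes, HMMR and CCNB2 rose by 0.61 ± 0.12 and 0.51 ± 0.12 and CDC25B fell by 0.49 ± 0.10. Replication-dependent histone genes, whose messages mostly lack a poly(A) tail, rose in 9 of 20 tested members and fell in 0, with a median of 1.22, but in 4 without control replicate 1. Only these 20 of 53 in the table passed the filter, some through the 100 µM libraries, the library protocol selects poly(A) RNA, and near-identical copies make single levels uncertain. H2BC4 held 4.8, 7.14 and 8.37 CPM in the controls and 22.2, 20.1 and 21.4 at 100 µM (1.65 ± 0.20), H2AC8 rose by 2.18 ± 0.33 and H2BC21 by 1.22 ± 0.20. H4C8 held 2.45, 3.04 and 3.23 CPM in the controls and 10.9, 9.87 and 42.8 at 100 µM (2.87 ± 0.61; 1.84 without 100 µM replicate 3; adjusted p = 0.0811 without control replicate 1).

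The BCL2 family, which governs cell death at mitochondria, had 4 rises and 0 falls among 17, among them BNIP3 and BNIP3L, BIK by 1.73 ± 0.36 (adjusted p = 0.0638 without control replicate 1) and BID by 0.57 ± 0.11. TP53INP1 and GADD45B, p53-linked stress genes, rose by 1.44 ± 0.18 and 1.24 ± 0.24, and AEN, a nuclease, fell by 0.83 ± 0.19, among 25 p53 targets. Of the 25, 2 rose and 4 fell without 100 µM replicate 3, in a fit that called 18.8% of all genes tested. DAPK1, a death-associated kinase, rose by 1.23 ± 0.11. Of 28 lysosome and autophagy genes 2 rose (ULK1, GABARAPL1) and 2 fell: CTSL, cathepsin L, by 0.72 ± 0.11, and SQSTM1, the autophagy receptor p62, by 0.72 ± 0.13, which held 2405, 3041 and 3062 CPM in the controls and 1741, 1806 and 1629 at 100 µM. The proteasome had 2 falls among 33, PSMA3 (-0.43 ± 0.09) and PSMG1 (-0.44 ± 0.11), both lost without control replicate 1 (adjusted p = 0.0546 and 0.0572). Without 100 µM replicate 3 it had 6 falls, in a fit where 8.9% of all genes tested fell.

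Signalling and adhesion genes gave single members, in lists of which several were called about as often as all genes tested (8.08%). Calls were 7.14% of 28 TGF-beta genes, 9.52% of 21 immediate early genes, 10% of 20 MAPK feedback genes and 10.5% of 19 matrix proteases and inhibitors. They were 11.5% of 26 epithelial and mesenchymal genes, 14.3% of 14 Wnt and stem cell genes and 15.4% of 13 EGF ligands and ERBB receptors. CLDN2, a pore-forming claudin of tight junctions (chromosome X, 106900164 to 106930861), held 57.6, 59.7 and 64.5 CPM in the controls and 10.9, 9.64 and 5.22 at 100 µM, a 7.04-fold fall (log2 -2.82 ± 0.25, adjusted p = 0.00425). ENPP2, autotaxin, which makes lysophosphatidic acid, held 25.7, 39.3 and 48.7 CPM in the controls and 10.8, 10.2 and 8.13 at 100 µM (-1.96 ± 0.24, adjusted p = 0.0111), and NRG1, a ligand of ERBB3, fell by 0.90 ± 0.14. INHBA, an activin subunit, held 0.951, 0.841 and 0.504 CPM in the controls and 6.13, 5.52 and 4.58 at 100 µM (2.81 ± 0.29), and TGFBI, a TGF-beta-induced matrix protein, rose by 0.52 ± 0.09. The integrin chains ITGA5 and ITGB1 rose by 1.09 ± 0.21 and 0.41 ± 0.10, both lost without control replicate 1 (adjusted p = 0.0637 and 0.072). MMP14, a membrane-bound matrix protease, rose by 0.77 ± 0.12, and ADAMTS1 fell by 1.37 ± 0.31, lost without control replicate 1 (adjusted p = 0.0584). JUND and MAFF rose by 1.08 ± 0.16 and 0.98 ± 0.15, DUSP1, a MAPK phosphatase, by 1.53 ± 0.28 and DKK1, a Wnt inhibitor, by 0.59 ± 0.09, and DUSP7 fell by 0.55 ± 0.12; DUSP1 and DUSP7 lost the call without control replicate 1 (adjusted p = 0.0571 and 0.0538).

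The list of interferon-stimulated and antigen presentation genes and that of splicing factors each held a few calls. These were 20.7% of 29 and 12% of 25 tested members, beside 8.08% of all genes tested. HLA-C and HLA-B, class I chains, rose by 0.86 ± 0.10 and 1.22 ± 0.30, and TAPBP, which loads peptides, by 0.65 ± 0.11, while TAP2, a peptide transporter, fell by 0.63 ± 0.10, among 29 genes with 5 rises and 1 fall (8 and 1 without 100 µM replicate 3, 3 and 1 without control replicate 1). Reads of the HLA genes can be shared, so these levels are uncertain, and HLA-B lost the call without control replicate 1 (adjusted p = 0.0503). SRSF1 and HNRNPH1, splicing factors, fell by 0.57 ± 0.10 and 0.54 ± 0.11, and CLK1, a kinase of SR proteins, rose by 0.48 ± 0.11, with CLK1 and HNRNPH1 lost without control replicate 1 (adjusted p = 0.083 and 0.0546). IL6, which passed the filter on low counts only through the 100 µM libraries, at 1.42, 0.881 and 1.18 CPM there, rose by 1.86 ± 0.44 (adjusted p = 0.0538 without control replicate 1), the sole call among 22 NF-kB genes. Without 100 µM replicate 3, 4 of the 22 were higher and 1 lower, in a fit that called 18.8% of all genes tested. The median of the 22 was 0.57 with all libraries and 0.21 without 100 µM replicate 3. YAP/TEAD targets had 0 calls among 19 in edgeR, while DESeq2 called 1, and 5 had an unadjusted edgeR p under 0.05. Of all 12667 genes tested, 3589 passed that unadjusted p, and DESeq2 called 1181 higher and 1008 lower.

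Among the 12 largest falls, the remaining genes were of low to middle level. CALB2, a calcium-binding protein, held 61.7, 55.3 and 62.9 CPM in the controls and 20.8, 24.2 and 12.8 at 100 µM (-1.64 ± 0.22). HPD, an enzyme of tyrosine breakdown, fell by 1.58 ± 0.28, with 3.82, 5.56 and 8.82 CPM at 100 µM against 19.1, 17.9 and 17.3 in the controls. NPR3, a natriuretic peptide receptor, fell by 1.56 ± 0.21, COL16A1, a collagen, 2.83-fold, RAB7B, a vesicle GTPase, by 1.78 ± 0.41, NIBAN1 by 1.66 ± 0.37 and SH2D5 by 1.43 ± 0.25. Of the 12 largest rises, LGI4 and MAP7D2 lost the call without control replicate 1 (adjusted p = 0.083 and 0.0998); LGI4 passed the filter on low counts only through the 100 µM libraries, held 3.82, 4.22 and 39.8 CPM there and was 5.21 ± 1.17 with all libraries but 3.22 without replicate 3, and MAP7D2 3.41 ± 0.82 and 2.00. TMEM45A, a membrane protein, held 4.17, 3.69 and 4.08 CPM in the controls and 19.1, 19.1 and 66 at 100 µM, at 3.12 ± 0.53 and 2.26 in the same order.

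In all 6 leave-one-out fits 18 genes stayed called, 17 higher and 1 lower. They were picked on these same values, so the list is a description. They were NXPH4, TCAF2, AK4, NDRG1, PDGFB, ENO2, PFKFB4, RNASET2, APOL1, CITED2, LOXL2, SRD5A3, C4orf3, FADS2, PLOD2, DAPK1, HDAC5 and, lower, CLDN2. NXPH4, a neurexophilin (chromosome 12, 57216794 to 57226449), held 3.76, 2.66 and 3.12 CPM in the controls and 29.9, 35.3 and 29 at 100 µM, a 9.84-fold rise (log2 3.30 ± 0.17, adjusted p = 0.000815). PDGFB, a growth factor of pericytes (chromosome 22, 39221869 to 39279897), held 4.94, 5.7 and 5.64 CPM in the controls and 25.3, 24.3 and 23.4 at 100 µM (2.16 ± 0.12). APOL1, an apolipoprotein of the trypanolytic factor, held 97.6, 95.6 and 92.2 CPM in the controls and 293, 290.5 and 358 at 100 µM (1.72 ± 0.11). C4orf3 and RNASET2 rose by 1.41 ± 0.09 and 1.80 ± 0.13, HDAC5, a histone deacetylase, by 1.22 ± 0.11, and SRD5A3, an enzyme of dolichol synthesis, by 1.44 ± 0.12. TCAF2 rose by 3.21 ± 0.29, passed the filter on low counts only through the 100 µM libraries, is not placed on a chromosome in the table and has a near-identical relative, so its level is uncertain.

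**Figure D5:**
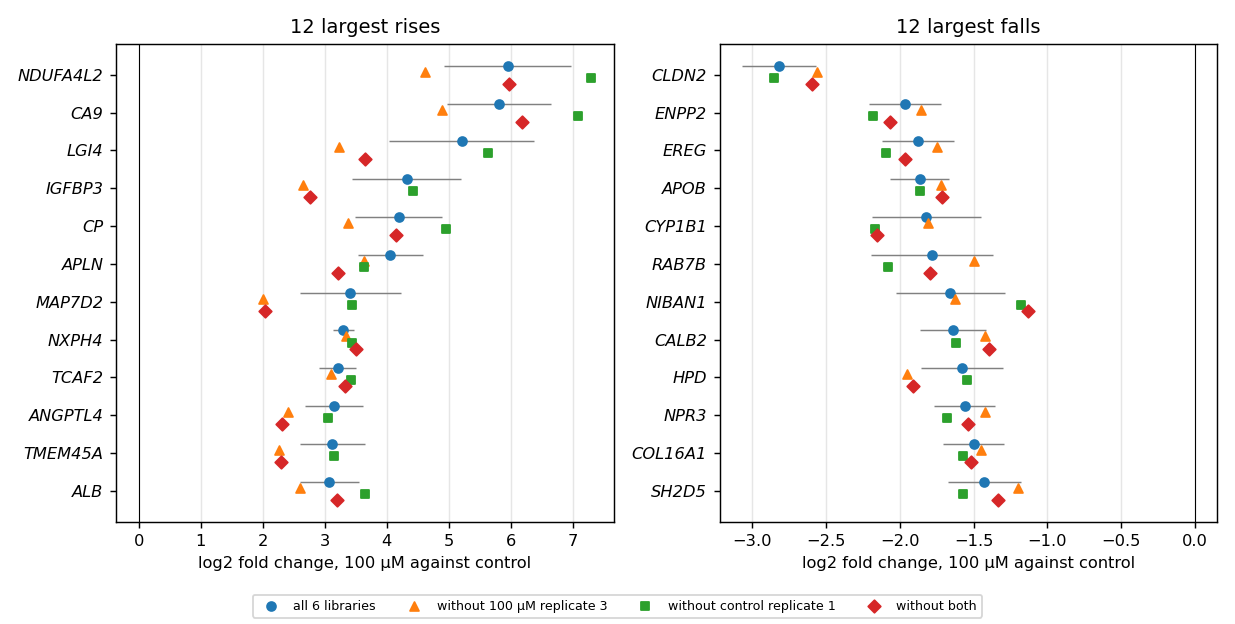
Log2 fold change at 100 µM against control for the 12 largest rises (left) and the 12 largest falls (right), with all 6 libraries (points with the standard error as a bar), without 100 µM replicate 3, without control replicate 1 and without both. Each estimate keeps its direction, and the largest shift is that of LGI4, from 5.21 to 3.22 without 100 µM replicate 3.

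The library set apart at 100 µM also carried levels that no other library had. IGFBP5 reached 119 CPM in replicate 3 against 2.92 or less elsewhere. TXNIP, an inhibitor of thioredoxin, held 45.5, 12.3 and 11.4 CPM in the controls and 25.7, 23.6 and 283 at 100 µM, and BIRC3, an inhibitor of apoptosis, 45.7, 16 and 14.1 CPM in the controls and 28.9, 29.8 and 207 at 100 µM. In the other direction PLAT, tissue plasminogen activator, held 27.5, 24.5 and 25.9 CPM in the controls and 119.6, 143 and 13 at 100 µM, and GDF15, a stress cytokine, 56.8, 158 and 146 CPM in the controls and 58.5, 72.1 and 14.1 at 100 µM. For TXNIP and BIRC3 control replicate 1 was likewise the highest control, and for GDF15 it was the lowest. None of these genes passed the test with all 6 libraries. Without 100 µM replicate 3 PLAT was 5.04-fold higher (log2 2.33, adjusted p = 5.11e-05). Of 531 genes at which 100 µM replicate 3 differed by at least 2-fold from the others of its group, 31 were called, beside 1024 of all 12667 tested (8.08%). The 531 were picked for a wide spread at 100 µM, which works against a call, so this count is a description.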

How the data were processed

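RNA-seq libraries of HCCLM3 cells were analysed from the authors' gene table of 17492 genes. Per the labels' protocols, oligo(dT) beads selected messenger RNA and libraries were treated with duplex-specific nuclease, which can compress differences between abundant and rare transcripts; its text describes tissue, while the samples are a cell line. The authors deposited expected counts (estimated reads per gene, not normalised) and FPKM for each library. The submitters' processing notes list RSEM 1.2.12, HISAT2 2.0.4, Bowtie2 2.2.5 and the build GRCh38.p13, without saying which did what. The strand setting and annotation are not given in the sources used here. Of the deposited expected counts 27.0% were whole within 1e-06. A further 18 columns of per-sample TPM and normalised counts were not used. Mitochondrially encoded genes were not analysed here.

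Expected counts were rounded to whole numbers. The 6 libraries of the comparison entered 1 fit, without the libraries of the lower dose. Genes were kept by edgeR's filterByExpr (minimum count 10, minimum total 15, share 0.7), which kept 12667 genes and removed 4825 with 0.0508% of the counts. A gene expressed in 1 group only can pass this filter through that group. Counts were scaled by TMM and compared by the robust quasi-likelihood F test of edgeR (two-sided), and p-values were adjusted by Benjamini and Hochberg's method over the 12667 genes, with calls at an adjusted p under 0.05. Versions were R 4.3.3, limma 3.58.1 and edgeR 4.0.16. The common dispersion of 0.0306 corresponds to a coefficient of variation of 17.5%. Log2 fold changes are given ± their standard error, whose median was 0.152. The test was tested on simulated counts for this comparison with 12566 genes. Among 98 genes altered 1.5-fold it found 18.4%, among 98 altered 2-fold it found 70.4%, and 11 unaltered genes were called. The simulated counts were drawn independently for each library, so none stood apart as control replicate 1 and 100 µM replicate 3 did. The simulation therefore cannot show how many genes are found or wrongly called in the real counts. Alternatives were DESeq2 1.42.0, other scalings and filters, limma on log2(FPKM + 1) and on log2(FPKM + 0.1), sample quality weights, a replicate block and leaving out libraries.

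The members and gene lists were chosen with earlier results of these data known. The naming rule took IGFBP3, the 12 largest rises and the 12 largest falls among called genes without overlap whose higher group averaged at least 5 CPM, and up to 3 called members of each list with the smallest p, or the most abundant member where none was called. Other list members and the genes described for the libraries that stand apart were named after their values were seen. Lists are described by counts and medians over the members that passed the filter, with no set test. Promoter windows came from RefSeq on GRCh38.p14, matched by gene identifier. Gene positions are those of the authors' table on GRCh38, without strand because its strand entries differ from RefSeq for some genes, and genes that the table puts on an unplaced or alternate sequence have none. Some list members counted here are not reported by name.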

Additional observations from a re-analysis of the deposited data

How the results depend on the processing

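The number of calls was the least stable result. DESeq2 called 1181 genes higher and 1008 lower, with no adjusted p for 253 genes. Sample quality weights in limma voom gave 2926 and 2790, leaving out both libraries that stand apart 3174 and 3112, and limma on log2(FPKM + 1) without a filter 272 and 243. Over the fits that left out 1 library each, the counts ran from 20 to 1261 higher and from 1 to 1138 lower. DESeq2's size factors, library totals, no filter on low counts, and limma on log2(FPKM + 1) and log2(FPKM + 0.1) with the filter stayed within 1.5 times of the edgeR counts. Of the 113 named genes that were called, 112 of the 112 with an adjusted p were called in DESeq2, 107 with library totals, 104 without the filter and 97 of 104 in limma on log2(FPKM + 1). Signs changed for values near 0: ETFB was 0.0013 with quality weights, 0.022 without both libraries and -0.095 to 0.023 without 1 library, and MYOF -0.33 to 0.0041 without 1 library. List medians that changed sign were those of ABC transporters (-0.022 on log2(FPKM + 1)), metallothioneins and zinc transport (-0.23 to 0.012 without 1 library), respiratory chain subunits (-0.0038 with quality weights, -0.011 without both, -0.0015 to 0.093 without 1 library), ATF4 targets (0.032 with quality weights, 0.041 without both) and p53 targets (-0.061 to 0.054 without 1 library). The median of G2/M genes was -0.0023 on log2(FPKM + 1) with and without the filter, -0.0025 on log2(FPKM + 0.1) and -0.012 to 0.070 without 1 library, and that of hepatocyte markers -0.047 to 0.21 without 1 library. The cause of these shifts was not tested.

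Replicate numbers shared between the groups were checked for pairing: deviations of same-numbered libraries correlated across genes at -0.546, 0.391 and -0.445. The highest value was 0.58, between control replicate 1 and 100 µM replicate 3, the libraries that stand apart. Deviations within a group cancel out at each gene, so these libraries weigh on all the other values. The check therefore cannot show whether the libraries are paired. With the replicate block edgeR called 10 genes higher and 0 lower, against 2529 genes at an unadjusted p under 0.05; the 10 were among the 18 genes called in every fit that left out 1 library, a count added after seeing the data. Genes under 1 CPM in a group rest on few reads, so their folds are imprecise.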

Other observations

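Membership in 50 hallmark sets is given per gene in the authors' table, and the sets named here were picked after their counts were seen, so they are a description. Genes of the hypoxia set were called higher in 48 and lower in 1 of 166 tested, beside 4.63% higher and 3.45% lower over all genes tested. Cholesterol homeostasis had 16 higher and 2 lower of 69, glycolysis 35 and 7 of 173, the epithelial-mesenchymal set 28 and 5 of 140, coagulation 17 and 2 of 95 and myogenesis 21 and 5 of 120. MYC targets went the other way, with 0 higher and 12 lower of 58 in the second set and 2 and 25 of 200 in the first. E2F targets had 3 higher and 22 lower of 199. The mTORC1 set was mixed, with 20 higher and 19 lower of 192. The sets share members with each other and with the lists of the report.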
